A study of Mus musculus with 6 samples.

Results

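The 10 genes described here control how liver makes lipid: the transcription factors Srebf1, Srebf2 and Mlxipl, the nuclear receptors Nr1h3 and Nr1h2, the sterol-sensing proteins Scap, Insig1 and Insig2, and the acetyl-CoA carboxylase regulators Mid1ip1 and Thrsp. They were taken by gene symbol from a table of 51912 genes, and all 10 were measured. Livers of C57/B6 mice were collected at 21 days from 2 groups. One group had nursed on mothers given triclosan (TCS), an antimicrobial of consumer products, and the other on vehicle mothers with regular milk. By the methods the mothers ate TCS in pregnancy as well as while nursing. Exposure before birth therefore cannot be told apart from exposure through milk. The dose was 120 ppm, which the sample labels place in the milk and the methods place in the mothers' chow. By the methods only male pups were used, and each of the 3 RNA samples per group combined several mice. A sample is therefore a pool, and the spread between samples is a spread between pools. The methods also give at least 2 litters for each treatment group. The litters in each pool are not given, so pools of a group may share mothers. Abundance is in TPM, a share of all transcripts that is corrected for gene length and keeps no read depth, and no counting interval can be given. The column names give the group and a number that cannot be tied to a single label and pairs no samples.

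Sterol regulatory element-binding proteins are made as precursors in the endoplasmic reticulum, where SCAP escorts them to the Golgi for cleavage and INSIG proteins hold them back when sterol is plentiful. SREBP-1c, made from Srebf1, is the form known for driving fatty acid synthesis (de novo lipogenesis, DNL) in liver, and SREBP-2, made from Srebf2, is known for cholesterol synthesis and uptake. ChREBP, made from Mlxipl, answers sugar metabolites, and the liver X receptors LXRα (Nr1h3) and LXRβ (Nr1h2) answer oxysterols and can raise Srebf1 transcription. The mouse Insig1 gene is itself an SREBP target, and MIG12 (Mid1ip1) and SPOT14 (Thrsp) act on the carboxylase that makes malonyl-CoA.

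The test took in every gene that reached 1 TPM in 3 or more of the 6 samples. This left 13325 genes, with all 10 regulators among them. Each was tested with limma on log2(TPM + 1) and called when its Benjamini-Hochberg adjusted p, taken over these 13325 genes, was under 0.05. The median of all genes tested lay 0.13 higher in TCS than in vehicle on the log2 scale, so a change of that size is the middle of the table. The summed level of 5 hepatocyte markers was 111800 to 117000 TPM in TCS samples and 126500 to 137300 TPM in vehicle samples. Kupffer cell markers summed to 159 to 201 TPM in TCS and 168 to 202 TPM in vehicle, adipocyte markers to 0.958 to 4.18 TPM in TCS and 1.10 to 2.60 TPM in vehicle, and pancreatic acinar markers to 9.07 to 295 TPM in TCS and 39.4 to 308 TPM in vehicle. Sums were 133 to 145 TPM in TCS and 140 to 153 TPM in vehicle for sinusoidal endothelial markers, 65.2 to 73.2 TPM in TCS and 58.6 to 71.1 TPM in vehicle for stellate markers, and 9.05 to 10.7 TPM in TCS and 5.09 to 15.6 TPM in vehicle for cholangiocyte markers. For blood cells they were 2.59 to 4.39 TPM in TCS and 2.53 to 3.42 TPM in vehicle for lymphocyte markers, 42.7 to 73.0 TPM in TCS and 49.98 to 118.4 TPM in vehicle for neutrophil markers, and 2801 to 3094 TPM in TCS and 3231 to 3454 TPM in vehicle for erythroid markers. The part of these levels in the results below was not tested, and in whole liver fewer cells of a type cannot be told apart from less RNA per cell.

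The start sites of these genes are shown first because Srebf1, Insig1 and Mid1ip1 had the 3 highest fold changes among the regulators, and Insig2, the near relative of Insig1, had the lowest. RefSeq annotates 17 starts for the 10 genes on GRCm38.p6. Each window of 300 bases, from 250 before a start to 50 after it, was searched on both strands for exact matches of CACGTG (an E-box), TCACNCCAC (a sterol element), CCAAT (the box read by NF-Y, a factor that works beside SREBPs) and TCACGTGA (an E-box form that SREBPs bind, which contains CACGTG). Below, capitals mark these matches, with ATTGG being CCAAT on the other strand, and the printed stretch stops where an annotated exon begins. The sequences are the RefSeq letters, 5′ to 3′ in each gene's own direction. Srebf1 is shown at the innermost of its 3 starts, chr11:60210472-60210721 on the minus strand, Insig1 at chr5:28071162-28071362 on the plus strand, Mid1ip1 at chrX:10717115-10717364 on the plus strand, and Insig2 at the outermost of 3 starts, chr1:121332590-121332839 on the minus strand.
Srebf1: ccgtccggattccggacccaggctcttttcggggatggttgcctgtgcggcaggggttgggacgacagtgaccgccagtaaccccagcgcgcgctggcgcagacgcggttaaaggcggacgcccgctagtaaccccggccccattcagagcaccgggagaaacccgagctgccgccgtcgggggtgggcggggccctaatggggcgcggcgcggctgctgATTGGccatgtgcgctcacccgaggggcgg
Insig1: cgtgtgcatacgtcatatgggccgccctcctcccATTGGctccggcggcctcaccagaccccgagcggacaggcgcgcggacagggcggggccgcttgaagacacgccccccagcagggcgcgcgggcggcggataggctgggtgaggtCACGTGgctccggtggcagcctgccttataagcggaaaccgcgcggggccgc
Mid1ip1: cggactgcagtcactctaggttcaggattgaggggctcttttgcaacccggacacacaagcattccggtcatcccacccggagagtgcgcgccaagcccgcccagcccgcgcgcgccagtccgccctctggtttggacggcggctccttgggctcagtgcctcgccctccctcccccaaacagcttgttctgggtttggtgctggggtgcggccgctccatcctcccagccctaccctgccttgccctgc
Insig2: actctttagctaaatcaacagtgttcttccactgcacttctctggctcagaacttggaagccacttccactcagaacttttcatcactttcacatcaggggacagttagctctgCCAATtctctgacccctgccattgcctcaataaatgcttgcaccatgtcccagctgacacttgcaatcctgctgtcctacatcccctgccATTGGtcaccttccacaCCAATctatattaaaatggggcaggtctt

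The Srebf1 window held 1 NF-Y box, beginning 30 bases before the start, and no exact match of CACGTG or TCACNCCAC. Other spellings of an E-box or a sterol element, and LXR elements, were not searched for, so their absence is not shown. Insig1 held an E-box beginning 101 bases before the start and an NF-Y box 216 bases before it. Insig2 held 3 NF-Y boxes, at 136, 46 and 29 bases before its outermost start, and Mid1ip1 held no match to any of the 4 motifs. Among all 17 windows, 4 held CACGTG, against 7.15% of 32851 windows of the same length over all genes. These were both Scap windows, which overlap each other, the Insig1 window and the first Mlxipl window. CCAAT stood in 7 of 17, against 37.4% of all windows, TCACNCCAC in 1 of 17, the second Mlxipl window, against 1.24%, and TCACGTGA in 0 of 17, against 0.974%. A match is a string of letters and not a measured binding site. TPM are given per gene, so which start of Srebf1, Insig2 or Mlxipl was used in these livers is not known from the table. The methods describe strand-specific counting over RefSeq exons for FPKM and give no strand setting for the TPM. At least 2 regulators share exon bases with an expressed gene on the other strand: Srebf1 shares 109 bases with Rai1, which averaged 4.39 TPM in TCS samples and 3.94 TPM in vehicle samples, and Mlxipl shares 633 bases with Gm43500, which averaged 0.896 TPM in TCS samples and 1.70 TPM in vehicle samples.

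**Figure D1:**
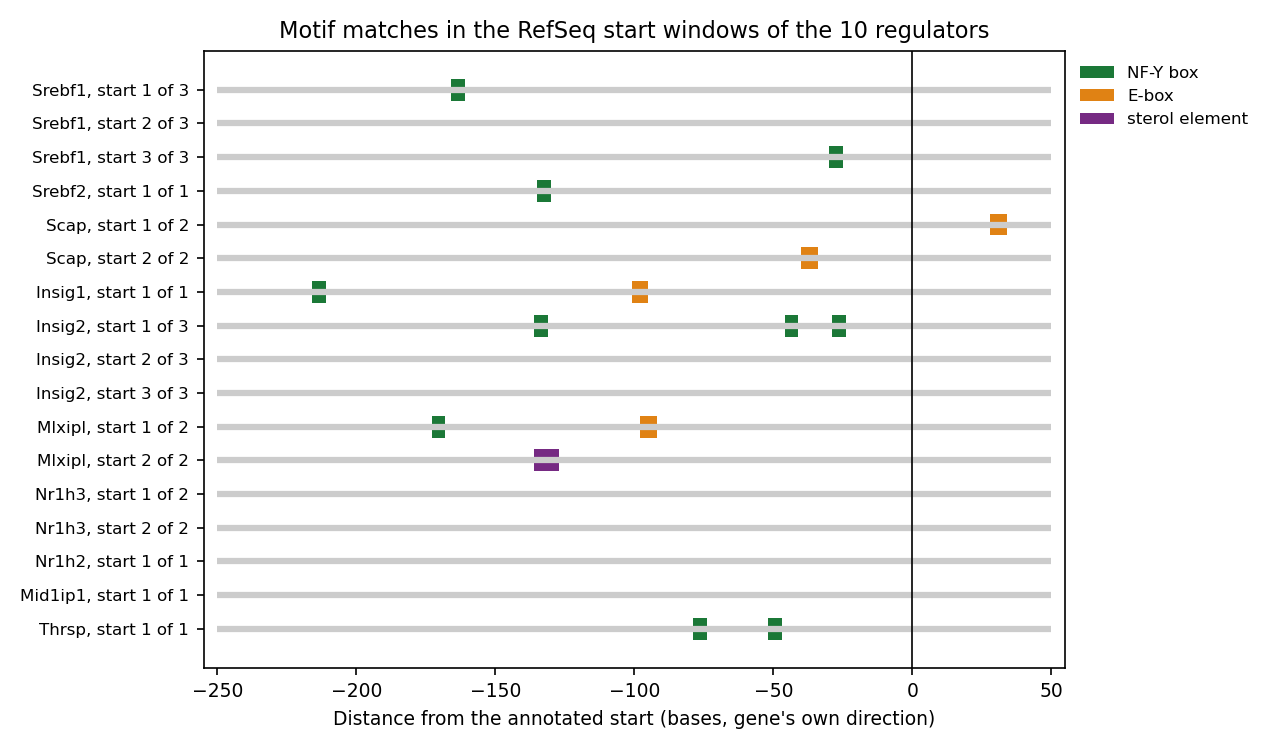
Motif matches in the 17 RefSeq start windows of the 10 regulators; the horizontal axis is the distance in bases from the annotated start in the gene's own direction, each grey line is 1 window and each coloured block 1 match. The NF-Y box CCAAT falls in 7 windows, the E-box CACGTG in 4 and the sterol element TCACNCCAC in 1, and 7 of the 17 windows, that of Mid1ip1 among them, hold none of these.

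Of the 10 regulators only Srebf1 was called, as higher in TCS, where 0.173% of all genes tested were called. Srebf1, the gene of SREBP-1 (ENSMUSG00000020538, chr11:60199089-60222581, minus strand of GRCm38 in GENCODE M21, as for the genes below), measured 104, 104 and 116 TPM in TCS samples, against 47.3, 45.0 and 57.4 TPM in vehicle samples. Every TCS sample lay far above every vehicle sample, and the ratio of group means was 2.16. The limma log2 fold change was 1.10 with a standard error of 0.11, a 95% interval of 0.85 to 1.36 and an adjusted p of 0.035, and Srebf1 ranked 11 of the 13325 genes by p. The call was lost when any 1 of 5 of the 6 samples was left out: limma's adjusted p over the 6 fits ran from 0.0232, without vehicle replicate 3, to 0.128, while the log2 fold change stayed between 1.04 and 1.21. It was also lost without the filter on low values (limma adjusted p = 0.0899), whereas array weights called Srebf1, Insig1, Mid1ip1 and Thrsp among 1240 of all genes tested. At an unadjusted limma p under 0.05, 4 of the 10 were higher in TCS, where 19.5% of all genes were, and 0 were lower, where 3.5% of all genes were. The excess of higher over lower genes in the table was gone after rescaling: with median-of-ratios factors 8.31% of all genes were higher and 8.97% lower, and with quantile normalization 8.71% and 8.28%. Of the 10 regulators the same 4, Srebf1, Insig1, Mid1ip1 and Thrsp, were higher at that p under both, and Nr1h2 was lower at that p under both. In 5 of the 10 all TCS samples lay above all vehicle samples, where 25.1% of all genes did so, and 0 showed the reverse, where 4.61% did. The median log2 fold change over the 10 was 0.26, against 0.13 over all genes.

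**Figure D2:**
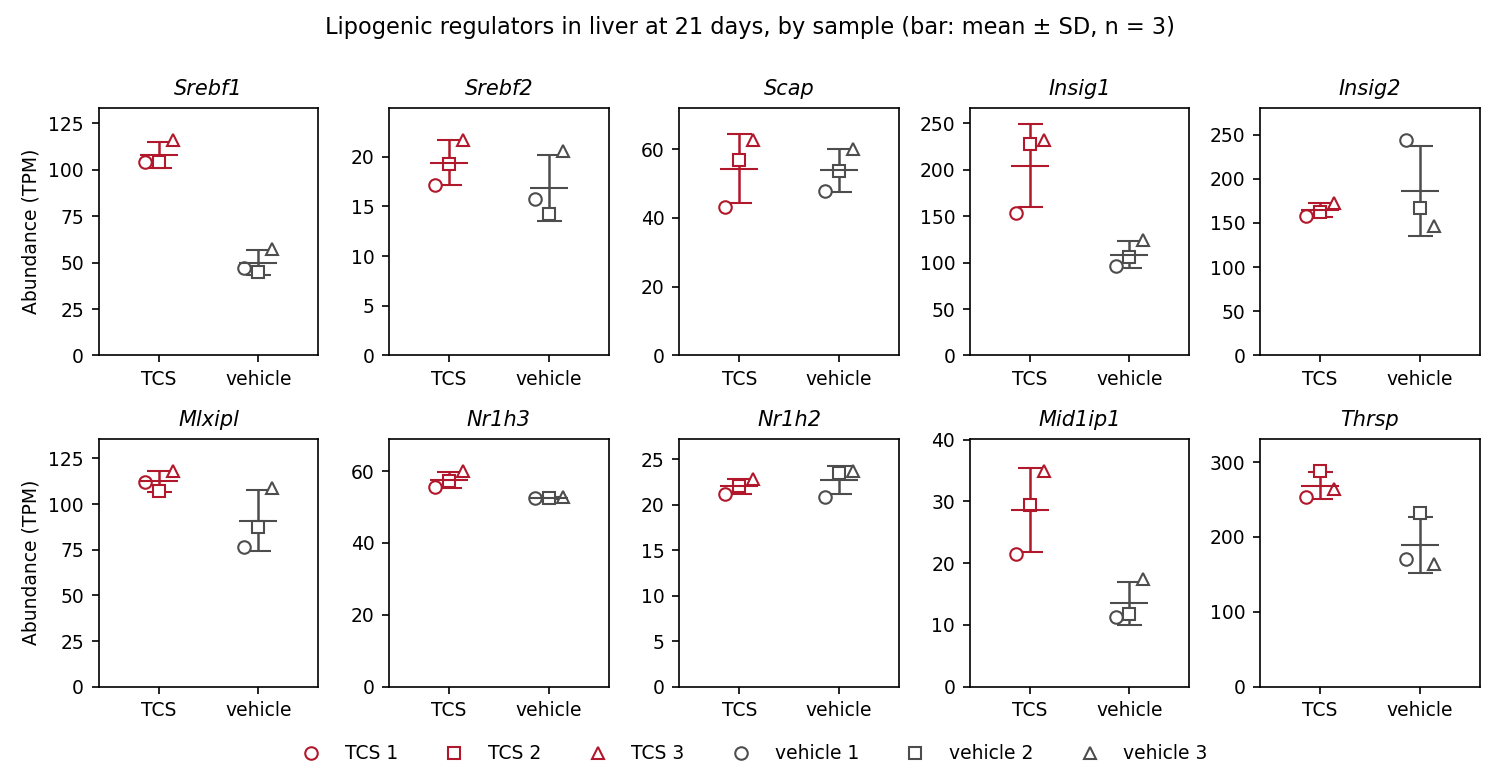
Abundance in TPM (vertical axes, each from 0) of the 10 regulators in 3 TCS and 3 vehicle samples; open symbols are samples, and bars are the mean with its SD. The groups are apart in Srebf1, Insig1, Nr1h3, Mid1ip1 and Thrsp and overlap in the other 5, and in Insig2 vehicle sample 1, at 244 TPM, stands above all others.

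Srebf2, the gene of SREBP-2 (ENSMUSG00000022463, chr15:82147181-82205379, plus strand), was not called. It measured 17.2, 19.3 and 21.7 TPM in TCS samples and 15.8, 14.2 and 20.6 TPM in vehicle samples, so the groups overlapped. Its log2 fold change was 0.20 with a standard error of 0.15 (limma adjusted p = 0.449, interval -0.17 to 0.57). It was 0.06 with median-of-ratios rescaling, 0.07 with quantile normalization, 0.09 without vehicle replicate 2, 0.12 without TCS replicate 3 and 0.35 without vehicle replicate 3 (limma adjusted p = 0.192 there). The 2 paralogs were set against each other within each sample, where a ratio does not depend on how samples are scaled. Srebf1 was 6.05, 5.39 and 5.35 times as abundant as Srebf2 in TCS samples, against 2.99, 3.17 and 2.79 times in vehicle samples. The difference in mean log2 ratio was 0.91 and the groups did not overlap. In all, 6 such ratios were tested, each with an exact two-sided permutation test over the 20 splits of 6 samples, which cannot go below 0.1, and for this ratio p was 0.1 (0.12 after Benjamini-Hochberg adjustment over the 6, as for each ratio below whose p is 0.1).

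Scap, the escort of both SREBPs (ENSMUSG00000032485, chr9:110333288-110384950, plus strand), had nearly equal means: 43.2, 56.9 and 62.7 TPM in TCS samples and 47.7, 53.7 and 60.1 TPM in vehicle samples. Both groups spanned nearly the same range, the log2 fold change was 0.0008 (limma adjusted p = 0.998), and its 95% interval ran from -0.37 to 0.37. The Srebf1 to Scap ratio was 2.41, 1.83 and 1.85 in TCS samples, against 0.992, 0.838 and 0.955 in vehicle samples. Srebf1 transcripts thus outnumbered Scap transcripts in each TCS sample and fell just short of them in each vehicle sample (difference in mean log2 ratio 1.12, exact permutation p = 0.1).

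The 2 INSIG genes, whose proteins hold the SCAP-SREBP complex in the endoplasmic reticulum, differed in their values. Insig1 (ENSMUSG00000045294, chr5:28071363-28078662, plus strand) measured 153, 228 and 232 TPM in TCS samples, against 95.8, 106 and 124 TPM in vehicle samples. All TCS samples were higher, although TCS sample 1 lay closer to the vehicle samples than to the other TCS samples. Its log2 fold change was 0.89 with a standard error of 0.18, unadjusted p 0.00229 and limma adjusted p 0.0929, short of the threshold. Insig2, the form known to be controlled less by SREBPs and, in mouse liver, to be held down by insulin (ENSMUSG00000003721, chr1:121304353-121332589, minus strand), measured 158, 162 and 173 TPM in TCS samples and 244, 167 and 147 TPM in vehicle samples. The TCS samples sat inside the vehicle range, whose upper end was set by vehicle sample 1 alone. For Insig2 the log2 fold change was -0.14 (limma adjusted p = 0.649) and turned to 0.07 without vehicle replicate 1. The Insig2 to Insig1 ratio was 1.03, 0.711 and 0.746 in TCS samples and 2.55, 1.58 and 1.19 in vehicle samples. Insig2 was the more abundant of the pair in every vehicle sample and in 1 of the 3 TCS samples. The difference in mean log2 ratio, TCS minus vehicle, was -1.04 (exact permutation p = 0.1, groups not overlapping).

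**Figure D3:**
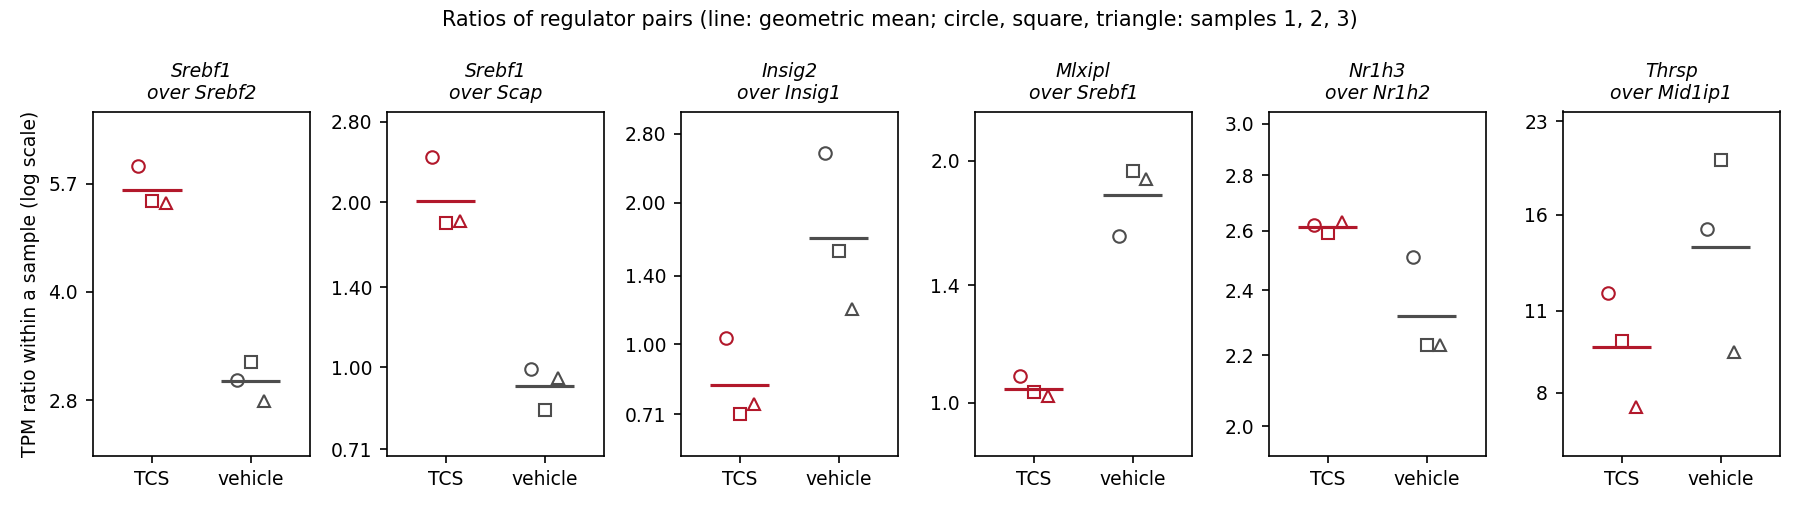
TPM ratios within each sample for 6 pairs of regulators, on log axes that differ in range between panels; symbols are the 3 samples of each group (TCS red, vehicle grey) and lines are geometric means. Ratios with Srebf1 on top are higher in TCS, Insig2 over Insig1 and Mlxipl over Srebf1 are lower in TCS, Nr1h3 over Nr1h2 is 2.59 to 2.63 in TCS and 2.23 to 2.51 in vehicle, and Thrsp over Mid1ip1 overlaps.

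Mlxipl, the gene of ChREBP (ENSMUSG00000005373, chr5:135089890-135138382, plus strand), measured 112, 107 and 118 TPM in TCS samples, against 76.3, 87.5 and 109 TPM in vehicle samples. Vehicle sample 3 fell within the TCS range, and the other vehicle samples lay below it. The log2 fold change was 0.32 with a standard error of 0.13, unadjusted p 0.0507 and limma adjusted p 0.218. It was 0.16 with median-of-ratios rescaling, 0.18 with quantile normalization, 0.20 without vehicle replicate 1 and 0.45 without vehicle replicate 3 (limma adjusted p = 0.101 there). Mlxipl was 1.08, 1.03 and 1.02 times as abundant as Srebf1 in TCS samples, against 1.61, 1.94 and 1.90 times in vehicle samples, so the pair stood almost level in TCS samples alone. The difference in mean log2 ratio was -0.80 (exact permutation p = 0.1, groups not overlapping). By Q-RT-PCR of liver the paper reports both Mlxipl and Srebf1 as increased by TCS.

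The LXR genes differed little between groups. Nr1h3, the liver-rich form (ENSMUSG00000002108, chr2:91184061-91202834, minus strand), measured 55.5, 57.3 and 60.0 TPM in TCS samples and 52.4, 52.5 and 52.8 TPM in vehicle samples. The TCS samples were all higher, but the log2 fold change of 0.13 (limma adjusted p = 0.256) equalled the median of all genes and became -0.02 after median-of-ratios rescaling. Nr1h2, the form found in most tissues (ENSMUSG00000060601, chr7:44549616-44553951, minus strand), measured 21.2, 22.1 and 22.8 TPM in TCS samples and 20.9, 23.5 and 23.7 TPM in vehicle samples, and the groups overlapped. Its log2 fold change was -0.04 with a 95% interval of -0.23 to 0.15 (limma adjusted p = 0.778), and it was -0.19 with median-of-ratios rescaling (limma adjusted p = 0.228) and -0.18 with quantile normalization. The Nr1h3 to Nr1h2 ratio was 2.62, 2.59 and 2.63 in TCS samples and 2.51, 2.23 and 2.23 in vehicle samples (difference in mean log2 ratio 0.17, exact permutation p = 0.1).

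The paired carboxylase regulators were both higher in every TCS sample. Mid1ip1, whose protein MIG12 promotes polymerization of acetyl-CoA carboxylase (ENSMUSG00000008035, chrX:10715013-10719690, plus strand), measured 21.5, 29.4 and 34.9 TPM in TCS samples, against 11.3, 11.7 and 17.5 TPM in vehicle samples. Its group means differed 2.12-fold, close to the 2.16-fold of Srebf1, but its samples spread more widely, and the standard error of its log2 fold change of 1.03 was 0.22 (unadjusted p 0.00306, limma adjusted p = 0.0975). Thrsp, a thyroid hormone responsive gene that is among the abundant lipogenic transcripts of liver (ENSMUSG00000035686, chr7:97412938-97417730, minus strand), measured 253, 288 and 264 TPM in TCS samples, against 171, 232 and 164 TPM in vehicle samples. The lowest TCS sample, at 253 TPM, lay above the highest vehicle sample, at 232 TPM. For Thrsp the log2 fold change was 0.52 with a standard error of 0.14 (unadjusted p 0.00892, limma adjusted p = 0.123). Thrsp was 11.8, 9.80 and 7.56 times as abundant as Mid1ip1 in TCS samples and 15.1, 19.8 and 9.37 times in vehicle samples, with the groups overlapping (exact permutation p = 0.3).

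**Figure D4:**
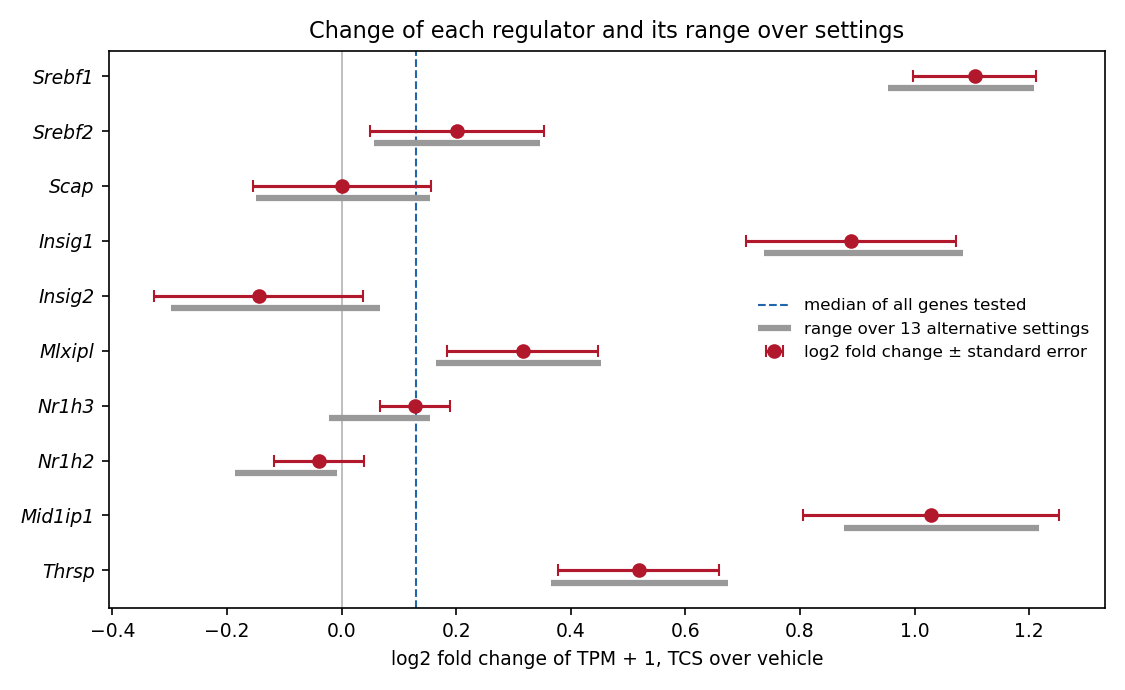
The log2 fold change of TPM + 1, TCS over vehicle, for each regulator (red points, with limma's standard error) above the range of that value over 13 alternative settings (grey bars); the dashed line is the median of all genes tested, 0.13. Srebf1, Insig1, Mlxipl, Mid1ip1 and Thrsp stay right of the dashed line in every setting, and the ranges of Scap, Insig2 and Nr1h3 cross 0.

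By level, Thrsp was first in both groups, at a mean of 268 TPM in TCS and 189 TPM in vehicle. In TCS it was followed by Insig1 (204) and Insig2 (164), whose ranges overlapped, then by Mlxipl (112) and Srebf1 (108), whose ranges overlapped, then by Nr1h3 (57.6) and Scap (54.3), which overlapped, and last by Mid1ip1 (28.6), Nr1h2 (22.0) and Srebf2 (19.4), each overlapping its neighbour. In vehicle Thrsp and Insig2 (186) overlapped, then came Insig1 (109) and Mlxipl (90.9), which overlapped, then Scap (53.8), Nr1h3 (52.6) and Srebf1 (49.9), each overlapping its neighbour, then Nr1h2 (22.7), and last Srebf2 (16.9) and Mid1ip1 (13.5), which overlapped. The range of Srebf1 thus overlapped that of Mlxipl in TCS and those of Scap and Nr1h3 in vehicle. Mid1ip1, last in vehicle, had a higher mean than Nr1h2 in TCS, with overlapping ranges. Within groups the samples also differed in a shared way: TCS sample 3 was the highest TCS sample for 9 of the 10 regulators and vehicle sample 3 the highest vehicle sample for 8 of 10, against 53.9% and 44.9% of all genes tested. Median-of-ratios factors, which scale the samples by their typical gene, were also highest in these samples within their groups, at 1.005, 1.058 and 1.108 in TCS samples and 0.928, 0.939 and 0.983 in vehicle samples, and their part in this order was not tested.

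The proteins that cleave, retain or degrade SREBPs were read from a list of 11 genes, of which 0 were called, 4 were higher in TCS at an unadjusted limma p under 0.05 and 0 lower, against 19.5% and 3.5% of all genes. Only 1 was higher at that p after either rescaling, where 8.31% of all genes were with median-of-ratios factors and 8.71% with quantile normalization. The median log2 fold change of the 11 genes, 0.13, was that of all genes. Erlin1, which with Erlin2 forms an endoplasmic reticulum complex that binds sterol-regulated proteins, measured 30.3, 37.0 and 40.7 TPM in TCS samples and 25.7, 28.0 and 27.3 TPM in vehicle samples (log2 fold change 0.39, limma adjusted p = 0.134). Rnf145, a sterol-responsive ubiquitin ligase, measured 14.9, 14.6 and 15.8 TPM in TCS samples and 12.7, 12.6 and 12.5 TPM in vehicle samples (0.24, limma adjusted p = 0.132). Erlin2 and Mbtps1, the gene of the site-1 protease that makes the first cut in SREBPs, had log2 fold changes of 0.22 and 0.18.

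The SREBP-1c target list held 15 genes of DNL. A higher mean in TCS was found for 74.8% of all genes tested and for all 15 of these. None passed the adjusted threshold, 11 were higher at an unadjusted limma p under 0.05 and 0 lower, where 19.5% and 3.5% of all genes were, and in 10 the TCS samples all lay above the vehicle samples, where 25.1% of all genes did so. After median-of-ratios rescaling 9 were higher and 0 lower at that p, where 8.31% and 8.97% of all genes were. All 15 kept a higher mean under it, where 49.8% of all genes had one. The median log2 fold change was 0.64, or 0.51 above that of all genes, and 8 of the 15 are genes that the study drew from these same samples. The paper states that the genes in its liver heatmaps passed its own adjusted cut-off of 0.05, which was not met here. The whole list was chosen with earlier results of these data known, so the direction of none of the 15 is independent evidence. Scd1, which desaturates stearoyl-CoA, measured 189, 347 and 393 TPM in TCS samples, against 102, 98.8 and 166 TPM in vehicle samples (log2 fold change 1.31, standard error 0.32, limma adjusted p = 0.11). Me1, a source of NADPH, measured 59.8, 74.4 and 101 TPM in TCS samples, against 30.9, 43.5 and 38.9 TPM in vehicle samples (1.02, limma adjusted p = 0.0932). Fasn, fatty acid synthase, and Gpam, the first acyltransferase of glycerolipid synthesis, had log2 fold changes of 0.87 and 0.72.

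The SREBP-2 target list held 22 genes of sterol synthesis and uptake. All 22 also had a higher mean in TCS, where 74.8% of all genes did, although Srebf2 itself overlapped between groups. After median-of-ratios rescaling 20 of the 22 had a higher mean, where 49.8% of all genes did. Of the 22 genes 0 were called and 17 were higher at an unadjusted limma p under 0.05, where 19.5% of all genes were, or 10 after median-of-ratios rescaling, where 8.31% of all genes were. In 7 of the 22 all TCS samples lay above all vehicle samples, a share close to the 25.1% of all genes. The median log2 fold change was 0.49, or 0.36 above that of all genes, and 7 of the 22 were drawn by the study. This list too was chosen with earlier results of these data known, so its direction is not independent evidence. Mvd, an enzyme of the mevalonate pathway, measured 24.6, 32.2 and 37.4 TPM in TCS samples, against 16.0, 8.65 and 20.5 TPM in vehicle samples (1.07, standard error 0.31, limma adjusted p = 0.132). The groups of Mvd did not overlap, and vehicle sample 2 was the lowest of all. The sterol genes also ordered the samples of a group alike: TCS sample 1 was the lowest TCS sample for 22 of 22 and TCS sample 3 the highest for 21 of 22, and vehicle sample 3 was the highest vehicle sample for 21 of 22, where the shares of all genes tested were 53.7%, 53.9% and 44.9%. The summed level was 3130, 3837 and 4514 TPM in TCS samples and 2405, 2229 and 3316 TPM in vehicle samples, so vehicle sample 3 exceeded TCS sample 1. For the SREBP-1c list the same sums were 1398, 1972 and 2194 TPM in TCS samples and 1052, 1180 and 1339 TPM in vehicle samples, and they did not overlap.

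**Figure D5:**
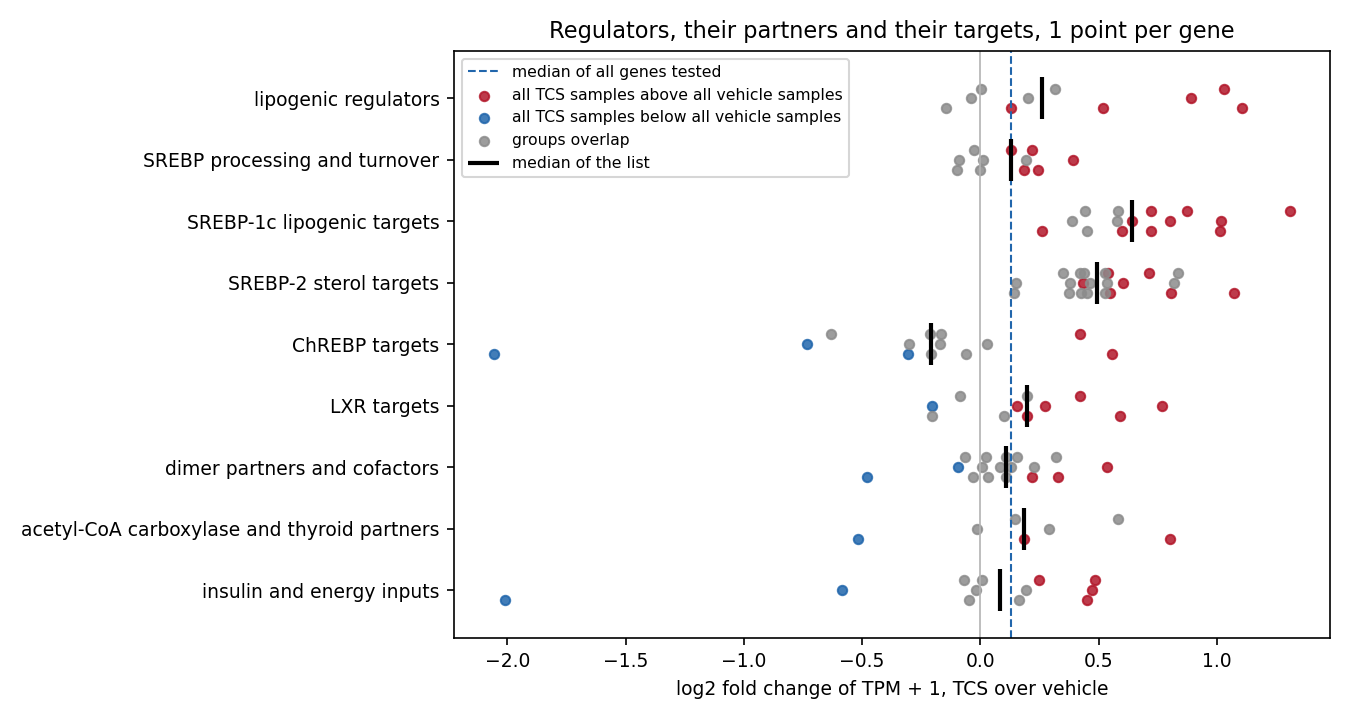
The log2 fold change of TPM + 1, TCS over vehicle, for the 10 regulators and 8 lists of their partners and targets; each point is 1 gene, coloured by whether its groups overlap, and black bars are list medians. The medians of the SREBP-1c and SREBP-2 lists, 0.64 and 0.49, lie right of the dashed median of all genes, and that of the ChREBP list, -0.21, lies left of it.

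Most genes on the ChREBP target list had lower means in TCS. Of the 13 genes listed 10 did so, where 25.2% of all genes did, and the median log2 fold change was -0.21, a difference of -0.34 from that of all genes. The list holds none of the 15 DNL genes of the SREBP-1c list, which all had higher means in TCS. Some of those are also known ChREBP targets, so the direction holds for this list and not for all ChREBP targets. The ChREBP list was also chosen with earlier results of these data known. Rgs16, a regulator of G protein signalling that ChREBP is known to induce in liver, fell: it measured 34.1, 36.1 and 22.8 TPM in TCS samples, against 112, 137 and 142 TPM in vehicle samples (log2 fold change -2.06, standard error 0.19, limma adjusted p = 0.027). It was the only gene of the list that was called, and the call was lost in each of the 6 fits that left out 1 sample and in the fit with no filter. Txnip, an inhibitor of glucose uptake, measured 47.0, 50.5 and 42.9 TPM in TCS samples, against 56.1, 97.7 and 87.5 TPM in vehicle samples (-0.73, limma adjusted p = 0.127). Against these, Gpd1, which makes glycerol 3-phosphate, measured 109, 110 and 134 TPM in TCS samples, against 78.9, 74.9 and 84.6 TPM in vehicle samples (0.56, limma adjusted p = 0.0863), and Tkt, transketolase, had a log2 fold change of 0.42. At an unadjusted limma p under 0.05, 2 genes were higher and 2 lower, where 19.5% and 3.5% of all genes were, and after median-of-ratios rescaling 2 were higher and 6 lower, where 8.31% and 8.97% were. Pklr, the liver pyruvate kinase and a classic ChREBP target that lies outside the naming rule and was picked after its values were seen, measured 58.6, 64.1 and 83.2 TPM in TCS samples and 56.2, 74.2 and 85.3 TPM in vehicle samples, which overlapped.

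LXR targets were mixed. Of 11 genes 0 were called, and 4 were higher and 1 lower at an unadjusted limma p under 0.05, where 19.5% and 3.5% of all genes were. After median-of-ratios rescaling 1 was higher and 2 lower at that p, where 8.31% and 8.97% of all genes were. In 6 of the 11 all TCS samples lay above all vehicle samples, where 25.1% of all genes did so, and the median log2 fold change of 0.19 lay 0.06 above that of all genes. Abca1, a cholesterol exporter, measured 38.9, 40.1 and 49.7 TPM in TCS samples, against 29.5, 22.1 and 33.6 TPM in vehicle samples (0.59, limma adjusted p = 0.132). Cyp7a1, the rate-limiting enzyme of bile acid synthesis and an LXR target in mouse, measured 116, 121 and 159 TPM in TCS samples, against 85.9, 48.2 and 107 TPM in vehicle samples (0.77, limma adjusted p = 0.194). Lpcat3, which builds polyunsaturated phospholipid, and Pltp, the phospholipid transfer protein, had log2 fold changes of 0.42 and 0.27. Abcg5 and Abcg8, the paired sterol exporters, picked after their values were seen, overlapped between groups at -0.09 and -0.20.

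Among 17 dimer partners and cofactors of these factors 0 were called, 3 were higher and 1 lower at an unadjusted limma p under 0.05, shares close to the 19.5% and 3.5% of all genes, and their median log2 fold change of 0.11 was close to that of all genes. Mlx, the obligate partner of ChREBP, measured 36.1, 34.1 and 37.6 TPM in TCS samples, against 32.1, 26.2 and 27.2 TPM in vehicle samples (0.33, limma adjusted p = 0.132). Mlxip, which makes MondoA, the relative of ChREBP, measured 2.82, 3.02 and 3.35 TPM in TCS samples, against 5.10, 4.96 and 3.97 TPM in vehicle samples (-0.48, limma adjusted p = 0.111). Nfyb, a subunit of NF-Y, had a log2 fold change of 0.54, and Ncor1, a corepressor used by LXRs, 0.32.

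For Mid1ip1 and Thrsp a list of 7 carboxylase and thyroid hormone genes was read, of which 0 were called, 2 were higher and 1 lower at an unadjusted limma p under 0.05, against 19.5% and 3.5% of all genes, with a median log2 fold change of 0.18. The 2 higher genes were the carboxylases, which are also counted in the SREBP-1c list. Acaca, the cytosolic form, measured 29.9, 42.5 and 50.6 TPM in TCS samples and 21.6, 26.8 and 31.9 TPM in vehicle samples, which overlapped (0.58, limma adjusted p = 0.19). Acacb, the mitochondrial form, which the study drew, measured 9.88, 16.1 and 16.5 TPM in TCS samples, against 6.18, 8.14 and 8.34 TPM in vehicle samples (0.80, limma adjusted p = 0.118). Of the thyroid hormone genes, Klf9 measured 21.1, 22.8 and 24.4 TPM in TCS samples, against 27.7, 39.8 and 32.4 TPM in vehicle samples (-0.52, limma adjusted p = 0.119), while Dio1, a deiodinase and a common marker of thyroid hormone action in liver, had a log2 fold change of 0.18.

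Of 12 genes that carry insulin and energy signals to these regulators 0 were called, 4 were higher and 2 lower at an unadjusted limma p under 0.05, against 19.5% and 3.5% of all genes, with a median log2 fold change of 0.08. After median-of-ratios rescaling 2 were higher and 2 lower at that p, where 8.31% and 8.97% of all genes were. Lpin1, a phosphatidate phosphatase that in mouse also restrains nuclear SREBP, measured 26.2, 41.5 and 55.4 TPM in TCS samples, against 150, 203 and 137 TPM in vehicle samples. Its log2 fold change was -2.01 with a standard error of 0.28 (limma adjusted p = 0.0576), short of the threshold that it passed with the filter at 5 TPM. Foxo1, a factor that insulin excludes from the nucleus, measured 6.09, 5.70 and 6.69 TPM in TCS samples, against 11.0, 10.2 and 8.21 TPM in vehicle samples (-0.59, limma adjusted p = 0.0949). Irs1, an insulin receptor substrate, and Prkaa2, a catalytic subunit of AMPK, had log2 fold changes of 0.48 and 0.47.

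The genes whose profiles over the 6 samples were most like that of Srebf1, by Euclidean distance between mean-centred log2(TPM + 1) values among genes averaging at least 5 TPM, were Car3, Ugt2b35, the long noncoding Gm38079, Acsl3 and Rad51b, at distances of 0.21, 0.21, 0.24, 0.27 and 0.28. Car3, a carbonic anhydrase, measured 868, 740 and 932 TPM in TCS samples and 395, 343 and 479 TPM in vehicle samples. Acsl3, which activates fatty acids at lipid droplets, measured 21.4, 24.9 and 28.9 TPM in TCS samples and 10.8, 8.63 and 13.1 TPM in vehicle samples. Among the regulators, Mid1ip1 was nearest to Srebf1 at a distance of 0.46, with 17 other genes of at least 5 TPM outside the 10 nearer, then Insig1 at 0.52, with 25 nearer, and Thrsp at 0.96, with 877 nearer. This distance is a description over 6 samples that share the contrast and carries no test.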

How the data were processed

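Liver RNA was sequenced in 6 pooled samples, 3 TCS and 3 vehicle. Per the labels and methods the authors used bcl2fastq 2.17.1.14 for base calls and STAR 2.2.0c for alignment to mm10, and HOMER for strand-specific counting over RefSeq exons to FPKM. The deposited table from the authors holds TPM under Ensembl identifiers to 3 significant digits, and the step that made the TPM is not given in the sources used here. TPM sum to about the same total in every sample, so read depth is unknown and a share can move because others do. A second deposited sheet of the authors' own comparison (log2 fold changes and adjusted p-values) was not used.

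Genes reaching 1 TPM in 3 or more of 6 samples were tested in R 4.3.3 with limma 3.58.1 (moderated test with a variance trend) on log2(TPM + 1), so the fold changes of low genes are understated. P was adjusted by Benjamini-Hochberg over 13325 genes, and the threshold was 0.05. The study's methods name Student's t or the Wilcoxon-Mann-Whitney test. Here limma was used because it shares the spread across genes. By RNA-seq the paper reports many more genes up and down at an adjusted P below 0.05 than the 23 called here. The reason for that difference was not tested. Ratios within samples were compared by exact permutation (SciPy 1.17.1). P-values measure only the spread between these pools, which may share litters within a group. Simulated data with known changes were used to check the fit and the rescaling.

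The regulators, the 8 companion lists and the marker lists were chosen with earlier results of these data known. Named genes are the 10 regulators, called genes and up to 4 of smallest unadjusted p in each companion list, and the 5 genes of mean at least 5 TPM nearest to Srebf1; others are said to be picked after their values were seen. Some genes under this rule are not reported here. Alternatives were no filter, filtering at 5 TPM, a pseudocount of 0.1, median-of-ratios rescaling, quantile normalization, no trend, array weights and each sample left out in turn. Positions come from GENCODE M21 and start windows from RefSeq on GRCm38.p6, which covered all 10 regulators.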

Additional observations from a re-analysis of the deposited data

How the results depend on the processing

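In 13 alternatives Srebf1, Insig1, Mid1ip1 and Thrsp kept a positive log2 fold change with an unadjusted limma p under 0.05 in each, but calls after adjustment moved. Array weights called 1240 genes (1006 higher, 234 lower) in place of 23 (11 higher, 12 lower), 4 of them regulators, and the filter at 5 TPM called 59 (35 higher, 24 lower). Without a filter limma called 0 genes and 0 regulators, although 3123 genes were higher and 714 lower at an unadjusted p under 0.05. Median-of-ratios rescaling called 10 higher and 18 lower, and quantile normalization 8 higher and 20 lower. Both brought the median of all genes from 0.13 to about 0 and ended the excess of higher genes at an unadjusted p under 0.05, with 1107 higher and 1195 lower after median-of-ratios rescaling and 1160 higher and 1103 lower after quantile normalization, in place of 2597 higher and 466 lower. Among the 17 partners and cofactors 0 were then higher and 3 lower under both. The shares of all genes were 8.31% and 8.97% with median-of-ratios factors and 8.71% and 8.28% with quantile normalization. Leaving out 1 sample gave 0 to 29 calls and 0 to 1 regulators called, the 1 being Srebf1 without vehicle replicate 3. Without TCS replicate 3, limma's 0 calls stood beside 1580 genes higher and 453 lower at an unadjusted p under 0.05. Over the 13 alternatives the adjusted p of Srebf1 ran from 0.0107 to 0.128. The log2 fold change of Scap turned to -0.15 with median-of-ratios rescaling and -0.13 with quantile normalization, and ran from -0.11 to 0.15 with 1 sample left out. The log2 fold change of Nr1h3 turned to -0.022 with median-of-ratios rescaling. That of Insig2 was 0.067 without vehicle replicate 1, the upper end of a range from -0.30 with 1 sample left out. With 1 sample left out of a group of 3, the fit has 2 samples in that group. Array weights called 1 of 11 SREBP processing genes, 7 of 15 SREBP-1c targets, 6 of 22 SREBP-2 targets and 3 of 13 ChREBP targets. They also called 0 of 11 LXR targets, 1 of 17 partners and cofactors, 1 of 7 carboxylase and thyroid genes and 3 of 12 insulin and energy genes. Of all 13325 genes tested 1240 were called with these weights. The cause of these changes was not tested. No paired analysis was possible because the column numbers tie no samples together. With TPM alone, differences in depth between the samples could not be weighed.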

Other observations

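Genes for 3 microRNAs lie inside the SREBP genes and were picked after their values were seen. Mir6921, in an intron of Srebf1 on the same strand, was listed at 3.67, 8.82 and 6.55 TPM in TCS samples and at 0, 0 and 4.04 TPM in vehicle samples, so the groups overlapped (log2 fold change 2.03, standard error 0.67, limma adjusted p = 0.156). Such short annotations give few reads in libraries of long RNA, and reads from the Srebf1 precursor cannot be told apart from the microRNA here. Mir33, in an intron of Srebf2 and known to hold down cholesterol export, was listed at 0 in all 6 samples, as was Mir6922, which lies within exon sequence of Srebf1.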
